A study of Bos taurus with 9 samples.

Results

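Of the 24616 bovine gene identifiers measured, 82 had a transcript level in both kinds of 2-cell embryo that was far below the level in the unfertilised egg. They were chosen on FPKM as deposited, that is fragments counted per kilobase of a gene's transcript and set against the library's fragments. A gene was taken when every MII oocyte library had at least 10 FPKM, when the highest of the 6 embryo libraries was at most 0.5 times the lowest oocyte library, and when the mean over the 9 libraries was under 1000 FPKM. In all, 3928 genes had 10 FPKM or more in each oocyte library, and the 82 genes are 2.09% of them. A further 4 genes met the other conditions and were left out by the ceiling on the mean. These choices used the oocyte and embryo levels themselves, so the fall from oocyte to embryo is given below as a description, without a test.

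The libraries came from Holstein cattle (Bos taurus). MII oocytes are ripe eggs that wait in the second meiotic metaphase for a sperm, and each of their 3 libraries was a pool of 3 oocytes. Their developmental stage is labelled oocyte, although their tissue label calls them wild embryos. IVF embryos (eggs fertilised in culture) and SCNT embryos (eggs given a somatic cell's nucleus in place of their own) were both collected at the 2-cell stage, with 3 libraries each and 6 embryos to a pool. Stage and pool size therefore changed together between oocytes and embryos and cannot be told apart. The question of the series is which genes IVF and SCNT embryos express at different levels. The labels name no donor cell line, no activation protocol and no hour of collection, nor whether pools within a group had separate sources. All p-values therefore measure the spread between these libraries, part of which may be technical.

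A growing oocyte stores messenger RNA that it uses after it has stopped transcribing. From meiotic maturation onwards part of this store is removed, largely by shortening of the poly(A) tail through the CCR4-NOT deadenylase and then by decay of the message. An early route relies on factors already held in the egg, and a later route needs products of the embryo's own genome. In cattle the main wave of embryonic transcription comes at a later cleavage stage than the 2-cell stage, so a 2-cell embryo still lives mostly on the stored RNA. In an SCNT embryo that store likewise comes from the recipient egg, while the nucleus comes from a differentiated cell.

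The table lists Ensembl identifiers without symbols, and 0 of 24616 could be matched in the reference table used here. No function, sequence, position or marker check is therefore given for any gene. The genes are described as counts and levels, and few are named. Library sums of FPKM lay between 1153912 (MII replicate 2) and 1386979 (MII replicate 1). The spacing of low values gave relative depths between 80.4% (MII replicate 1) and 100% (SCNT replicate 3) of the deepest library, and the absolute depth is unknown. FPKM is a share of the library, so a loss of these transcripts and a gain of RNA from other genes cannot be told apart.

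In the oocyte the 82 transcripts covered a wide range of levels. Their mean over the 3 MII libraries ran from 12.9 to 1698 FPKM, with a median of 192 FPKM and quartiles of 76.7 and 473 FPKM. By this mean, 30 of the 82 lay under 100 FPKM, 28 between 100 and 400 FPKM and 24 at 400 FPKM or more. The 10 most abundant held 43.7% of the summed oocyte level of the set. Together the 82 transcripts made up 2.06%, 2.29% and 2.07% of the FPKM total in MII replicates 1, 2 and 3. They made up 0.591%, 0.613% and 0.623% in the IVF replicates and 0.541%, 0.544% and 0.611% in the SCNT replicates. Every embryo library was thus below every oocyte library, as the choice of the genes requires, and the lowest IVF share lay below the highest SCNT share.

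**Figure D1:**
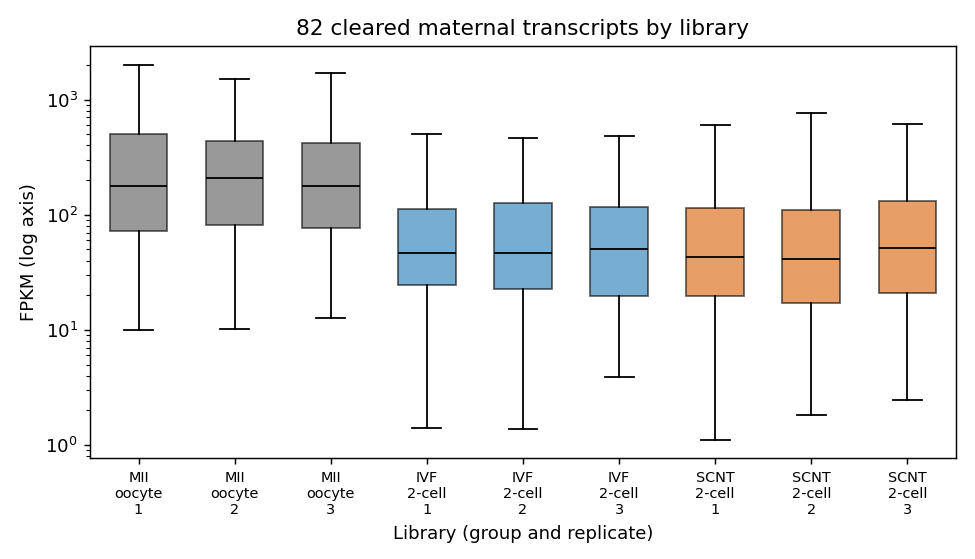
Levels of the 82 cleared maternal transcripts in each library, as FPKM on a log axis. Boxes give the median and quartiles and whiskers the lowest and highest value, leaving out the 2 values listed at 0 (1 in IVF replicate 3 and 1 in SCNT replicate 2). The oocyte medians lie between 176 and 208 FPKM and the embryo medians between 39.4 and 51.3 FPKM.

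The transcripts were reduced in the embryos, and almost none was absent. Of 492 values in embryo libraries, 490 were at 1 FPKM or more. The other 2 were listed at 0, for 2 different genes, 1 in an IVF library and 1 in an SCNT library. The word cleared therefore fits these genes only in the sense of a strong fall. The IVF mean was 28.4% of the oocyte mean for the median gene (quartiles 23.1% and 35.3%), with extremes of 6.55% and 44.3%. The SCNT mean was 26.4% of the oocyte mean for the median gene (quartiles 18.6% and 31.5%), with extremes of 5.40% and 44.9%. For the 3846 other genes at 10 FPKM or more in every oocyte library, the median gene stood at 106% of the oocyte level in IVF embryos and 89.3% in SCNT embryos.

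Deep falls were rare. At 10% of the oocyte mean or less there were 3 genes in IVF embryos and 3 in SCNT embryos. At 25% or less there were 30 in IVF embryos and 36 in SCNT embryos, and 23 of these were at 25% or less in both. A further 7 genes reached 25% only in IVF embryos, 13 only in SCNT embryos, and the remaining 39 stayed above it in both. With the condition tightened to 0.25 times the lowest oocyte library for each embryo library, 9 genes were left. Across the 82 genes, the share that remained had a Spearman's rho with the oocyte level of 0.0022 in IVF embryos and 0.26 in SCNT embryos. In SCNT embryos the median share was 22.1% for genes under 100 FPKM in the oocyte, 27.4% for those of 100 to 400 FPKM and 28.0% for those of 400 FPKM or more, and in IVF embryos it was 26.8%, 30.9% and 26.8%. The oocyte level enters both axes, and genes of 1 library are not independent.

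ENSBTAG00000014772 had the largest mean fall over both kinds of embryo. Its level was 165, 237 and 174 FPKM in MII replicates 1, 2 and 3, 9.22, 23.7 and 13.1 FPKM in the same order in IVF embryos, and 13.7, 8.72 and 9.20 FPKM in SCNT embryos. The embryo libraries overlap each other and lie far below each oocyte library. What remained was 7.97% of the oocyte mean in IVF and 5.49% in SCNT embryos. ENSBTAG00000001415 came second, with 53.7, 75.2 and 58.8 FPKM in the MII replicates. It had 4.45, 6.76 and 4.82 FPKM in IVF embryos and 3.36, 2.50 and 4.28 FPKM in SCNT embryos. Here each SCNT library was below each IVF library, and the remaining shares were 8.54% in IVF and 5.40% in SCNT embryos.

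The border of the set cuts through a continuum. The 3 genes just inside the condition had a ratio of the highest embryo to the lowest oocyte library of 0.4995, 0.498 and 0.497, and the 3 just outside had 0.5002, 0.501 and 0.503. There were 23 genes with a ratio between 0.45 and 0.5 and 30 between 0.5 and 0.55. At the floor of 10 FPKM, the lowest oocyte library of the nearest gene inside had 10.1 FPKM and that of the nearest gene outside 7.57 FPKM. At the ceiling, the nearest means over the 9 libraries were 942 FPKM inside and 1157 FPKM outside.

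Held to each kind of embryo alone, the same condition was met by 108 genes in IVF and 140 genes in SCNT embryos. The 82 genes are 75.9% of the first and 58.6% of the second list. The 26 genes that met it in IVF embryos only had a median of 35.2% of the oocyte level there and 42.3% in SCNT embryos. The 58 that met it in SCNT embryos only had 33.4% there and 45.4% in IVF embryos. Which of these lists is longer depended on the scaling. With median-ratio scaling (libraries set level at the median gene) 69 genes met the condition in IVF only and 35 in SCNT only. With quantile normalization (all libraries given 1 distribution) the numbers were 68 and 57, and with FPKM rescaled to a common sum 22 and 56.

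SCNT and IVF embryos were not compared with each other to choose the genes, but the ceiling that both had to meet is not neutral for this comparison. It dropped the 58 genes that met it in SCNT embryos only and the 26 that met it in IVF embryos only. Whether this raised or lowered the share of genes lower in SCNT embryos was not tested. Counts of lower and higher genes in the set are therefore in part fixed by the choice of the genes, and are a description. It asks whether the same maternal transcripts were left at different levels when the egg had received a somatic nucleus in place of a sperm. For FPKM as deposited, 59 of the 82 genes had a log2 change below 0 (lower in SCNT) and 23 above 0, and the median change was -0.17 on the log2(FPKM + 1) scale, with extremes of -1.02 and 0.80. Over all 9458 genes tested (at least 1 FPKM in at least 3 libraries), 77.8% had a change below 0 and the median was -0.25. Over the 3846 other genes of the oocyte store it was -0.24, with 74.6% below 0. With all libraries, these filters and this scale, the lean of the 82 genes towards lower SCNT levels was thus smaller than that of all genes tested. Without SCNT replicate 3 it was larger (median -0.27 and 80.5% below 0, against -0.25 and 77.9%). With low genes left in, all genes had a median of -0.11, smaller in size than that of the set, and 70.3% below 0. On the log2(FPKM + 5) scale the median was -0.15 both in the set and over all genes tested, with 70.7% and 77.7% below 0. The direction depended on the scaling. The median of the 82 genes was 0.07 after median-ratio scaling (35 genes below 0, against 55.7% of all genes). After quantile normalization it was 0.0015 (41 genes below 0, against 55%). With FPKM rescaled to a common sum it was -0.27 (63 genes, or 76.8%, below 0, against 83.6%). For all genes tested the medians were -0.04, -0.03 and -0.31.

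**Figure D2:**
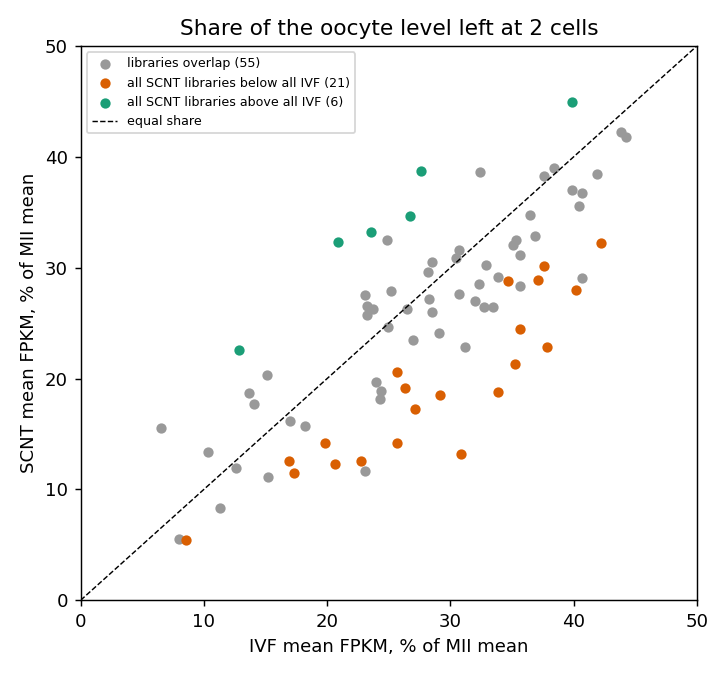
Mean FPKM left in IVF embryos (x axis) and SCNT embryos (y axis), each as a percentage of the MII mean, for the 82 genes. Both axes share the MII mean. Of the genes, 21 had each SCNT library below each IVF library, 6 had each SCNT library above, and 55 overlapped; points under the dashed line have a smaller share left in SCNT embryos.

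No single gene of the set passed the test between SCNT and IVF embryos. Limma, a linear model fitted to all genes with a shared estimate of spread, called 0 of the 82 at an adjusted p under 0.05 (Benjamini-Hochberg over 9458 genes), where 0.18% of all genes tested were called (0.0634% lower and 0.116% higher in SCNT). At an unadjusted p under 0.05 in limma, 28 of the 82 passed (22 with the replicate number as a block, where 28.1% of all genes did). Without the block these were 20 lower and 8 higher in SCNT, against 30.2% of all genes tested, 26.7% lower and 3.5% higher. As deposited, 21 of the 82 had no overlap with all SCNT libraries lower, where 36.7% of all genes tested did. A further 6 had no overlap with all SCNT libraries higher, where 4.63% of all genes tested did. In either direction it was 27 of 82 genes (32.9%), against 41.4%. With median-ratio scaling the split turned, with 6 lower (15.7% of all genes) and 16 higher (13.4%), and with quantile normalization it was 10 lower (14.4%) and 12 higher (10.9%). The set held a smaller share of lower and a larger share of higher genes than all genes tested. This was so by the unadjusted p and by each count of overlap. Nothing is read from this, since the ceiling was set on these same embryo levels and oocyte levels were not matched. What made the shares differ was not tested. The other genes of the oocyte store had 43.6% with all SCNT libraries lower and 8.01% with all higher, against 25.6% and 7.32% in the set, as deposited. The difference between the set and other genes was not tested.

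The count of called genes rested on which libraries gave the spread, and on the adjustment over all genes tested. With only the 6 embryo libraries fitted, limma called 12 of the 82 (10 lower and 2 higher) at an adjusted p under 0.05. In that setting 13.4% of all genes were called (11.9% lower and 1.49% higher). At an unadjusted p under 0.05 in limma, 24 of the 82 passed in this setting and 28 with all libraries. Over all genes tested, 3444 and 2856 passed. Without MII replicate 2, limma called 14 at an adjusted p under 0.05 (11 lower and 3 higher), where 17% of all genes were called (15.2% lower and 1.79% higher). It called 1 with quantile normalization and 1 without SCNT replicate 1, where 0.624% and 0.423% of all genes were called. With the replicate number as a block it called 0, where 0.0952% of all genes were called. MII replicate 2 takes no part in the SCNT and IVF means and enters this comparison through the shared spread alone. At an adjusted p under 0.1, a threshold added after seeing the data, limma called 15 of the 82 (11 lower and 4 higher), where 15.1% of all genes were called (13.4% lower and 1.66% higher). The 0 at 0.05 therefore does not show that the genes were alike in both kinds of embryo.

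The genes with the smallest p in each direction are given next. ENSBTAG00000017389 was at 1211, 1057 and 1041 FPKM in MII oocytes, at 432, 466 and 431 FPKM in IVF embryos and at 301, 309 and 316 FPKM in SCNT embryos (replicates 1, 2 and 3). The SCNT libraries lie together below all IVF libraries, so that 40.2% of the oocyte mean remained in IVF and 28.0% in SCNT embryos. The SCNT minus IVF change was -0.52 on the log2 scale (SE 0.106, adjusted p = 0.0644, limma). Its adjusted p in limma ran from 0.0168 to 0.304 across 19 alternatives, with 3 of them under 0.05, and its change from -0.62 to -0.27. ENSBTAG00000012545 was at 36.1, 49.3 and 34.4 FPKM in MII oocytes, 14.5, 15.6 and 15.2 FPKM in IVF embryos and 8.83, 8.55 and 9.98 FPKM in SCNT embryos. Again the embryo groups do not overlap, with a change of -0.67 (SE 0.157, adjusted p = 0.0724, limma, and 0.0149 to 0.222 across the alternatives).

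In the other direction, ENSBTAG00000011528 was at 592, 566 and 530 FPKM in MII oocytes, 128, 107 and 117 FPKM in IVF embryos and 133, 214 and 199 FPKM in SCNT embryos. SCNT replicate 1 lies close to the IVF libraries and the other SCNT libraries well above them, with a change of 0.60 (SE 0.168, adjusted p = 0.0734, limma, and 0.0358 to 0.222 across the alternatives). Without SCNT replicate 1 its change was 0.81 (adjusted p = 0.0358, limma). ENSBTAG00000021487, the most abundant of the 82 in the oocyte, was at 1988, 1522 and 1584 FPKM in MII oocytes. It had 505, 420 and 483 FPKM in IVF embryos and 599, 760 and 613 FPKM in SCNT embryos. All SCNT libraries were above all IVF libraries, with a change of 0.48 (SE 0.145, adjusted p = 0.0807, limma, and 0.0412 to 0.222 across the alternatives). It is also the gene nearest to the border of the set, through SCNT replicate 2. For each of these 4 genes the two-sided exact permutation p was 0.1, the smallest that 3 against 3 libraries can give.

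**Figure D3:**
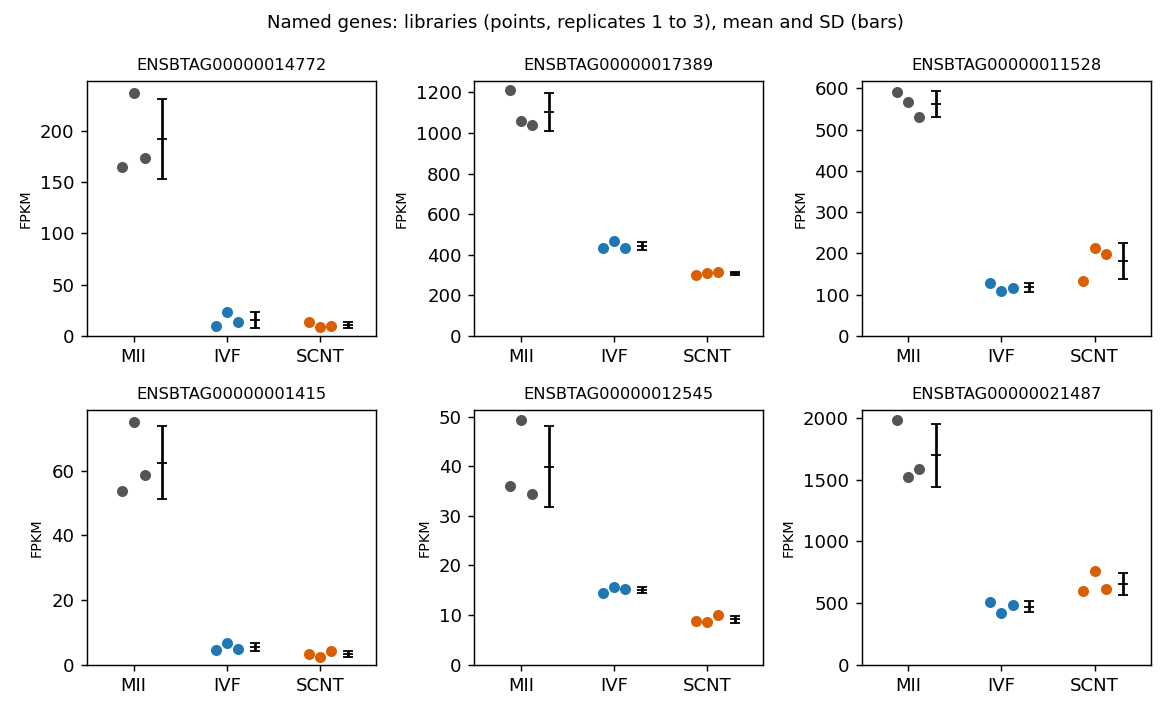
FPKM of the 6 named genes by library. Points are replicates 1 to 3 from left to right and the bar beside them is the mean with its SD (n = 3); each y axis starts at 0. In ENSBTAG00000017389 and ENSBTAG00000012545 the SCNT libraries lie below the IVF libraries, and in ENSBTAG00000011528 and ENSBTAG00000021487 above them.

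Within the set, the less abundant transcripts leaned most towards lower SCNT levels, an order that was lost with quantile normalization. Of the 30 genes with an oocyte mean under 100 FPKM, 27 had a change below 0 as deposited, with a median of -0.30. Of the 28 genes of 100 to 400 FPKM, 18 did (median -0.12), and of the 24 genes of 400 FPKM or more, 14 did (median -0.10). Other genes of the oocyte store had medians of -0.31, -0.14 and 0.13 in the same classes, with 84.0%, 67.4% and 29.3% below 0. In the top class the 82-gene set thus had 58.3% below 0 as deposited, against 29.3% of the other genes. The shares were 62.5% against 54.5% with quantile normalization and 62.5% against 44.8% with FPKM rescaled to a common sum. With median-ratio scaling they were 33.3% against 8.45%. In the class of 100 to 400 FPKM, quantile normalization gave 35.7% against 57.9%. Levels within the classes were not matched, and these differences were not tested. Classed by the embryo mean instead, 47 of 58 members under 100 FPKM were below 0 (81.0%), against 86.5% of the other genes. Of the members of 100 to 400 FPKM, 12 of 22 were below 0 (54.5%), against 62.7%. The class of 400 FPKM or more held only 2 members, with 0 below 0, against 23.5%. With median-ratio scaling the medians of the 3 classes of members were -0.07, 0.13 and 0.15, and with quantile normalization -0.01, 0.11 and -0.04, so the order across classes held with the former and not with the latter. The class borders were set with the data in view.

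**Figure D4:**
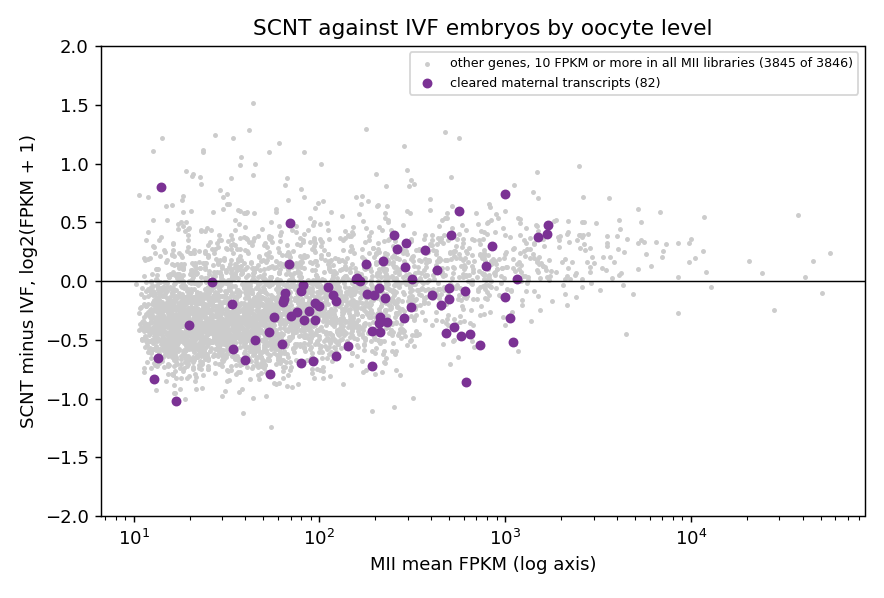
SCNT minus IVF change on the log2(FPKM + 1) scale against the MII mean (log axis), for the 82 genes and for 3845 of the 3846 other genes with 10 FPKM or more in every oocyte library (1 lies outside the axis). The 82 genes spread over the same band as the others at low levels, and lie on both sides of 0 at high levels.

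Replicates of these transcripts were spread more widely in SCNT embryos than in the other groups. The coefficient of variation over the 3 libraries had a median of 13.1% in oocytes, 11.5% in IVF embryos and 19.6% in SCNT embryos. It was above 20% for 21, 22 and 41 of the 82 genes. For the other genes of the oocyte store the medians were 15.4%, 8.90% and 10.7%. Levels were not matched in this description. Among genes with an embryo mean under 100 FPKM the 58 members had 21.4% in SCNT and 13.3% in IVF embryos, and the 2595 other genes 11.1% and 9.41%. SCNT replicate 2 was the lowest of the 6 embryo libraries for 41 of the 82 genes and SCNT replicate 1 for 23, while SCNT replicate 3 was lowest for 2. SCNT replicate 3 was the highest for 19 genes, next to 24 for IVF replicate 2. The median change between SCNT and IVF embryos was accordingly -0.27 without SCNT replicate 3 and -0.12 without SCNT replicate 2, with 66 and 54 genes below 0. The medians of all genes tested were -0.25 and -0.28 in the same settings. The levels that chose the genes enter these spreads, so they are a description.

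The oocyte libraries also differed among themselves in a way that ran along with the embryo comparison. MII replicate 2 was the highest oocyte library for 43 of the 82 genes and the lowest for 22. In 51 genes it lay above the mean of the other 2 oocyte libraries. These had a median oocyte level of 124 FPKM and a median SCNT minus IVF change of -0.30, with 43 below 0. In the other 31 genes, with a median oocyte level of 451 FPKM, the median change was -0.01, with 16 below 0. Across the 82 genes the deviation of MII replicate 2 had a Pearson's r of -0.49 and a Spearman's rho of -0.51 with the SCNT minus IVF change, although the 2 measures share no library. The 3846 other genes of the oocyte store gave -0.57 and -0.63, so the relation is not particular to the cleared genes. It kept its sign in the set with median-ratio scaling (r of -0.49) and quantile normalization (r of -0.39). These are correlations across genes, which share libraries and are not independent, and what sets MII replicate 2 apart was not tested.

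**Figure D5:**
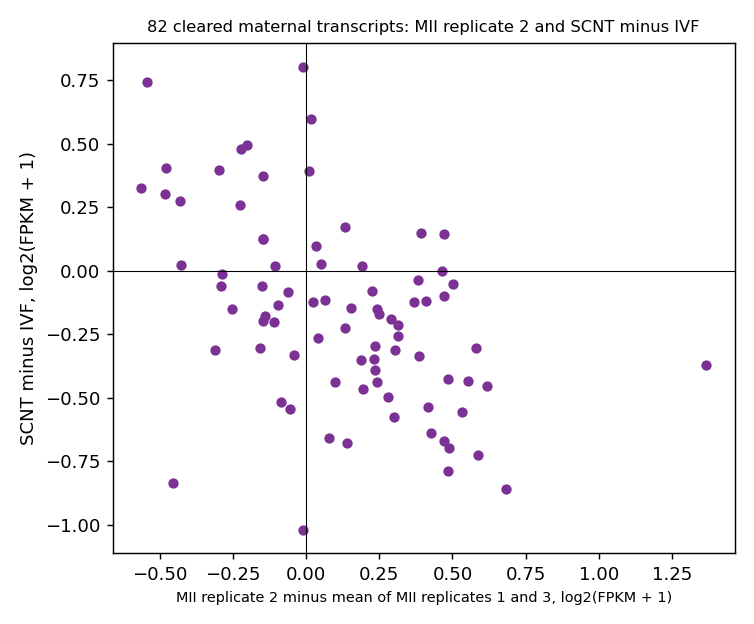
Deviation of MII replicate 2 from the mean of MII replicates 1 and 3 (x axis) and SCNT minus IVF change (y axis), both on the log2(FPKM + 1) scale, for the 82 genes. Genes to the right, higher in MII replicate 2, lie mostly below 0 on the y axis, and those to the left lie on both sides.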

How the data were processed

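The authors deposited 1 table of FPKM values, 1 column per library; only its name states the unit. The submitters' processing notes name RSEM 1.2.12, StringTie 1.0.4, Bowtie2 2.2.5, HISAT 0.1.6 and bcl2fastq 2.16 with the build UMD3.1, without roles, so the tool behind the FPKM is not given in the sources used. Per the labels' protocols, cDNA was made from total RNA of few cells, tailed and amplified, which adds noise for rare transcripts. No first-strand primer is named, so it is not known whether a shortened poly(A) tail alone would lower the values. No strand-marking step is named either, so overlapping antisense genes are uncertain, as are near-identical copies.

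Tested were the 9458 genes that reached 1 FPKM in 3 or more libraries. This is a filter that all 82 genes passed by their oocyte levels alone. In addition, 80 of them were at 1 FPKM or more in every embryo library. Limma 3.58.1 (R 4.3.3) fitted log2(FPKM + 1) with a term per group and a mean-variance trend, adjusted by Benjamini-Hochberg at 0.05. It was also run on simulated data with independent noise for each gene. Those data lacked the lean of most genes to 1 side seen here, so nothing is drawn from that run. Changes on the log2(FPKM + 1) scale understate those of low genes. Named genes are the 2 with the largest mean fall and the 2 with the smallest p in each direction between SCNT and IVF embryos; gene lists fixed for the design were not used, because no identifier had a name. Python 3.11.15, numpy 2.4.6, pandas 2.3.3 and matplotlib 3.10.9 made the other values and figures. The genes, the rule and the lists were chosen with earlier results of these data known. Alternatives changed the pseudocount, filter, scaling, trend, replicate block and libraries fitted.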

Additional observations from a re-analysis of the deposited data

How the results depend on the processing

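The number of the 82 genes called between SCNT and IVF embryos (limma, adjusted p under 0.05) was 0 as reported, 1 with quantile normalization, 12 with only the 6 embryo libraries, and 0 to 14 when single libraries were dropped (14 without MII replicate 2, 1 without SCNT replicate 1, 0 without each of the others). Of all genes tested, 0.624%, 13.4%, 17% and 0.423% were called with these 4 settings in the order given. Of the 82, 15 were called at an adjusted p under 0.1, chosen after seeing the data. The median SCNT minus IVF change of -0.17 turned to 0.066 after median-ratio scaling and 0.0015 after quantile normalization, and ran from -0.27 to -0.12 when single libraries were dropped. The number of genes below 0, 59, was 35 with median-ratio scaling. The median IVF minus MII change of -1.79 was -1.63 with a pseudocount of 5 and -2.02 with median-ratio scaling; the median SCNT minus MII change of -1.92 was -1.73 with a pseudocount of 5. The rule gave 9 genes at a ratio of at most 0.25, 69 to 117 under the other scalings, and 82 to 103 when single libraries were dropped. The 117 genes found with quantile normalization hold 74 of the 82, and the 69 found with FPKM rescaled to a common sum hold 67.

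The labels do not say whether libraries with the same replicate number in different groups shared a source or batch. Over all genes tested, the deviations of same-numbered libraries from their group means correlated from -0.17 to -0.00078. For libraries of different number the range was -0.092 to 0.11. With 3 libraries per group these values cannot show whether a batch was shared. With the replicate block 0 of the 82 genes were called (22, or 26.8%, at an unadjusted p under 0.05 in limma, against 28.1% of all genes), as without it (28, or 34.1%, against 30.2%). The absolute depth is unknown, so no counting interval is given.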
